A study of Mus musculus with 12 samples.

Results

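The genes described here are 35 mouse genes of the NFE2L2 and glutathione antioxidant system, chosen by name and matched by Ensembl gene ID to rows of a kidney expression table. All 35 were found among its 21899 genes, and the rule that matches them reads gene names alone. By role they were 2 regulators, 5 genes of glutathione synthesis and recycling, and 5 quinone, haem and thiol reductases. The rest were 9 genes that remove superoxide and peroxides, 10 glutathione transferases and 4 enzymes of NADPH supply or the pentose phosphate pathway. Messenger RNA was sequenced from whole kidney in 4 groups of 3 libraries. The group labelled db/db-GABP-KD came from db/db mice in which the transcription factor GABP was to be lowered, and its control, db/db-veh, from db/db mice given vehicle. The group labelled db/m-GABP-OE came from db/m mice in which GABP was to be raised, and its control, db/m-veh, from db/m mice given vehicle. Both copies of the leptin receptor gene are defective in db/db mice, a model of type 2 diabetes with obesity, while the lean db/m mice carry a single defective copy. How GABP was altered, the vehicle, and the mice's age and sex were not given in the sources used here. Kidneys of 6 mice were taken per group and 3 kidneys were mixed for each extraction, so libraries of a group may share animals, and the p-values measure only the spread between libraries.

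NFE2L2, also called NRF2, is a transcription factor that KEAP1 holds in the cytoplasm and marks for destruction. When reactive molecules modify cysteines of KEAP1, NFE2L2 builds up, enters the nucleus with a small MAF protein and binds antioxidant response elements in the promoters of genes for glutathione synthesis, thiol reduction, quinone reduction and conjugation. Glutathione and thioredoxin pass electrons from NADPH to peroxides and to oxidised proteins, and the proximal tubule of the kidney, which runs on oxidative metabolism, holds much of this machinery.

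Values are FPKM, fragments relative to gene length and to the library's total fragments, as the authors deposited them. The libraries held 6778005 to 9697446 fragments, of which mitochondrially encoded genes took 48.0% to 86.0%, so fragments from nuclear genes numbered 1081309 to 4392539. The first library labelled db/db-GABP-KD had the smallest mitochondrial share and the most nuclear fragments, and db/db-veh library 2 had the largest share and the fewest. The share also differed between groups: 58.6% to 64.2% in db/m-GABP-OE lay below 67.9% to 77.8% in db/m-veh without overlap. It was 75.1% to 86.0% in db/db-veh and 48.0% to 75.5% in db/db-GABP-KD. FPKM is a share of the library, so a higher mitochondrial share leaves less for nuclear genes. Counts and many fold changes are therefore also given after median of ratios scaling. This sets the typical nuclear gene to the same level in every library (size factors 0.529 to 1.71). Proximal tubule markers summed to 340 to 2093 FPKM and podocyte markers to 6.36 to 38.9 FPKM over the 12 libraries, with no listed marker of either at 0 throughout. Gabpa, the DNA-binding subunit of GABP, stood at 6.62, 2.66 and 3.40 FPKM in the libraries labelled db/db-GABP-KD, against 2.20, 2.17 and 1.63 FPKM in db/db-veh, so the label of lower GABP was not borne out at the level of this mRNA (log2 fold change 0.84, adjusted p = 0.345). In the libraries labelled db/m-GABP-OE it stood at 3.45, 3.35 and 3.71 FPKM, against 1.79, 2.32 and 2.54 FPKM in db/m-veh (log2 fold change 0.57, adjusted p = 0.435). After median of ratios scaling the log2 fold change of Gabpa in db/db-GABP-KD relative to db/db-veh was 0.31 (limma, adjusted p = 0.896). In db/m-GABP-OE relative to db/m-veh it was then 0.19 (limma, adjusted p = 0.999). The other GABP subunit genes, Gabpb1 and Gabpb2, had log2 fold changes of 0.51 and 0.45 in db/db-GABP-KD relative to db/db-veh as deposited. After scaling these were 0.049 and 0.18. In db/m-GABP-OE relative to db/m-veh they were 0.61 and 0.36 as deposited, and 0.28 and 0.13 after scaling. Neither gene was called.

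Promoters of 30 of the 35 genes could be read from RefSeq (GRCm38.p6), as windows of 300 bases from 250 before to 50 after the annotated start; Gclc, Gsr, Hmox1, Prdx6 and Gsta4 had none. Antioxidant response elements carry the core TGACNNNGC, and the composite site of NFE2L2 with a small MAF protein carries TGANTCAGC. Both were searched on both strands, and a run TGACTCAGC satisfies both. The stretches shown are those of the 4 genes with TGANTCAGC, because the composite site is the rarer of the motifs. Capitals mark the match, and each stretch runs 5′ to 3′ along the gene's strand, so that in Prdx1, where the match is on the opposite strand, the motif appears as its reverse complement.
Srxn1, chr2:152105449-152105517, plus strand: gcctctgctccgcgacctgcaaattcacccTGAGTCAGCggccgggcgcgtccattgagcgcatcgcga
Prdx1, chr4:116685436-116685504, plus strand: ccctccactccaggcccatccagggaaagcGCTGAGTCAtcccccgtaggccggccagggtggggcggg
Me1, chr9:86695882-86695950, minus strand: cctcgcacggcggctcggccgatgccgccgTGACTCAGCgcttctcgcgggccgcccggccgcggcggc
Gstp1, chr19:4037948-4038016, minus strand: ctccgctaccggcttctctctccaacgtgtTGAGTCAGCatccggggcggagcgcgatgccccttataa

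TGANTCAGC was therefore present in 4 of 30 antioxidant promoters (13.3%), against 1.37% of the 27025 genes with a window of this length. Relative to the annotated start, the first capital lay at position -45 in Srxn1, -133 in Prdx1, -6 in Me1 and -74 in Gstp1. The looser core TGACNNNGC was present in 12 of 30 (40.0%), against 14.0% of all genes. The 12 were Nfe2l2, Gclm, Srxn1, Txnrd1, Sod1, Prdx1, Gsta3, Gstm5, Mgst1, G6pdx, Pgd and Me1. The windows follow annotated starts, and some of these lie inside a gene's full span. The Pgd stretch, chr4:149166041-149166109, lies within Pgd (149149991 to 149166771, minus strand), so it is not upstream of the whole gene. The Txnrd1 stretch, chr10:82859084-82859152, also lies within its gene (82833951 to 82897712, plus strand). A match is a run of letters in this window, and whether any protein bound there was not measured.

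The 35 genes differed widely in level in db/m-veh kidneys when compared per length, from 1.28 FPKM for Gsta1 upwards among those measured. Gstm1, a mu-class glutathione transferase that couples glutathione to reactive compounds, had the highest mean at 291 ± 164 FPKM (here and below, mean ± SD, n = 3 libraries). It was followed by Prdx5, a peroxiredoxin of mitochondria and peroxisomes, at 179.8 ± 55.7 FPKM, by Cat, the peroxisomal catalase, at 109.6 ± 28.9 FPKM, and by Txn1, cytosolic thioredoxin, at 70.2 ± 19.04 FPKM. Libraries of db/m-veh held 479.8, 182 and 211 FPKM of Gstm1 and 182, 123 and 234 FPKM of Prdx5, so these neighbours in the order did not differ beyond their spread. Nfe2l2 was at 10.7 ± 1.64 FPKM and ranked 22 of the 35, and Keap1 was at 2.74 ± 0.6196 FPKM.

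Of the 35, 32 passed the filter of at least 0.3 FPKM in at least 3 libraries. The other 3 were at or near the floor in every group. Slc7a11, the cystine carrier that feeds glutathione synthesis in many cells, had 25 fragments in all 12 libraries together, Gpx2, a glutathione peroxidase of the gut lining, had 4, and Gstm3 had 3. Gsta1 passed with 83 fragments in all and was listed at 0 in db/db-veh library 2 and in the third library labelled db/m-GABP-OE. Gsta1 and Gsta2 are near-identical, as are several mu-class transferases, Gstp1 and Gstp2, and Txn1 and its pseudogene copies, so their split values depend on how shared reads were counted. Reads of Prdx5 and Trmt112, of Prdx2 with Junb and Rnaseh2a, of G6pdx and Ikbkg, of Gss with Acss2, Gssos1 and Gssos2, of Keap1 and Gm16754, of Gclm and Gm17494, of Gstm5 and 4933431E20Rik, and of Me1 and A330041J22Rik cannot be told apart where these genes overlap, since whether counting used strand was not given in the sources used here. Gclm also overlaps Gm6061, and Tkt the microRNA gene Mir3076, on the same strand.

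**Figure D1:**
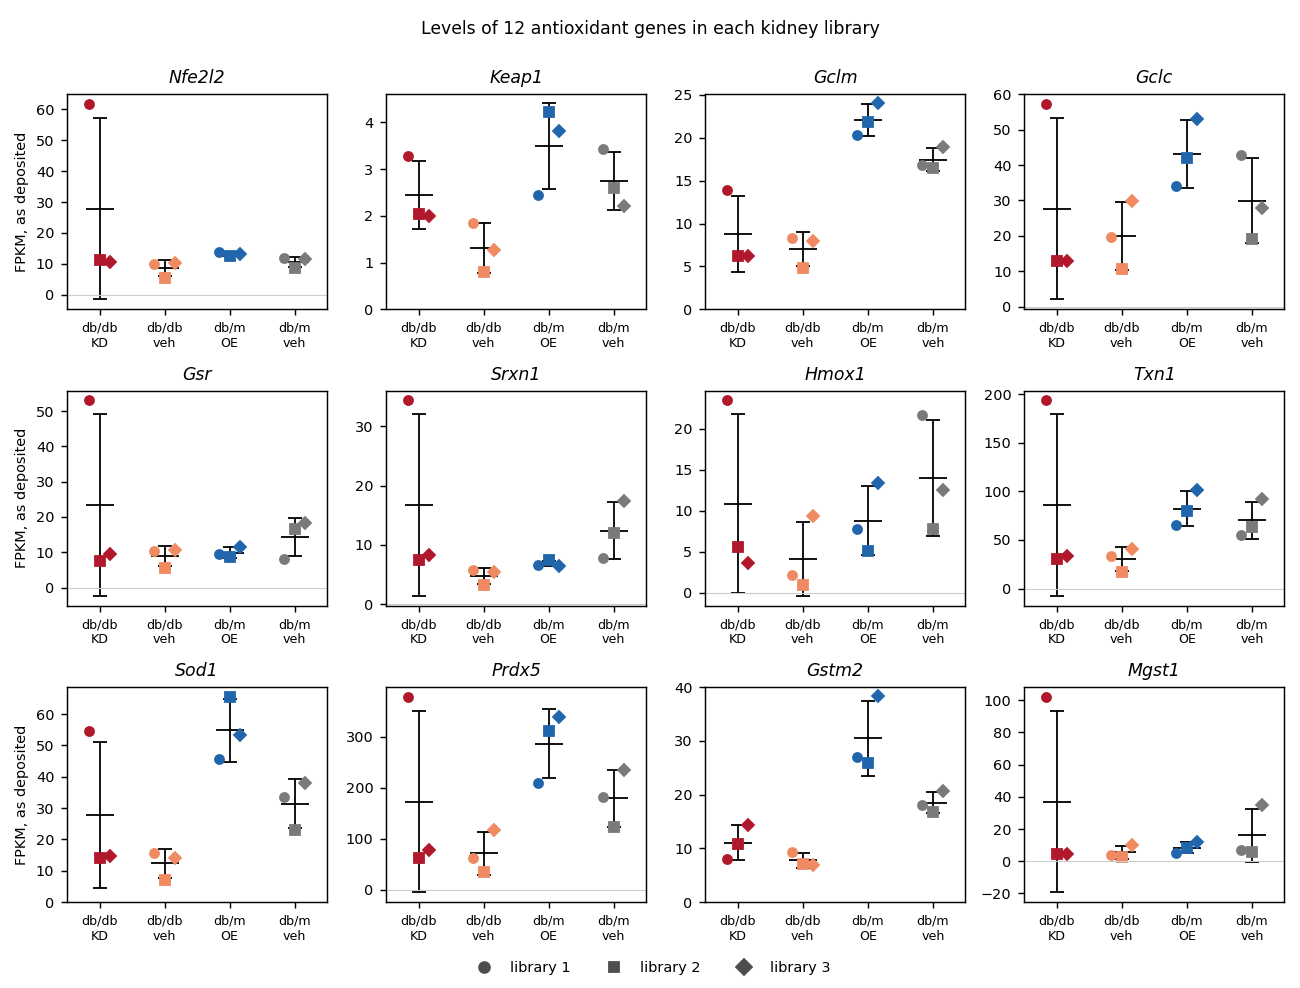
FPKM of 12 antioxidant genes in each library (points), by group, with the mean and SD of 3 libraries (bars); the vertical axes differ between genes. Keap1, Gclm, Srxn1, Txn1, Sod1, Prdx5 and Gstm2 are lower in db/db-veh than in db/m-veh without overlap, as are 14.4% of all genes. The first library labelled db/db-GABP-KD stands above all others for Nfe2l2, Gclc, Gsr, Srxn1, Hmox1, Txn1, Prdx5 and Mgst1, as for 39.9% of all genes.

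The first comparison asks how the antioxidant genes of the diabetic kidney differ from those of the lean kidney when both received vehicle. No member passed the test in either direction in db/db-veh relative to db/m-veh (limma on log2(FPKM + 0.5), Benjamini-Hochberg adjusted p under 0.05 over 12897 genes), where 0.031% of all genes tested were called higher and 0.062% lower. Point estimates lay mostly on the low side: the median log2 fold change of the 32 members was -0.65, against -0.24 over all genes. After median of ratios scaling it was -0.28, against 0.011, and after quantile normalization -0.145, against 0.016. Members below the all-gene median, which divides all genes evenly, numbered 28 of 32, and 25 of 32 after median of ratios scaling. At an unadjusted p under 0.05, 9 of 32 members were lower and 0 higher, where all genes gave 10.7% and 0.799%. That count hung on single libraries: it was 2 of 32 without db/db-veh library 2 (4.92% of all genes), 5 without db/m-veh library 3 (5.61%), 6 without db/m-veh library 1 (8.48%) and 11 without db/db-veh library 3 (9.95%). The libraries of the groups did not overlap for 8 members that were lower in db/db-veh and 0 that were higher, against 14.4% and 1.46% of all genes. After median of ratios scaling 0 members were called, where all genes gave 0.0543% higher and 0.116% lower. In that scaling 7 of 32 were lower at an unadjusted p under 0.05 and 0 higher, against 7.09% and 4.89% of all genes, and 7 were lower without overlap and 0 higher, against 9.03% and 8.3%. The smallest log2 fold change that was called had a size of 1.84 as deposited, which among the members Hmox1 alone exceeded.

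Of the regulators, Nfe2l2 (chromosome 2, 75675513 to 75704641, minus strand, GRCm38) had 9.98, 5.57 and 10.4 FPKM in db/db-veh, against 11.8, 8.81 and 11.4 FPKM in db/m-veh. The groups overlapped, with the lowest value of all in db/db-veh library 2. Its log2 fold change was -0.33 (SE 0.53, adjusted p = 0.869), with a 95% interval of -1.45 to 0.80, and 0.035 after median of ratios scaling. Keap1, which targets NFE2L2 for degradation, had 1.85, 0.802 and 1.28 FPKM in db/db-veh, against 3.43, 2.595 and 2.21 FPKM in db/m-veh. All 3 db/db-veh libraries lay below all 3 db/m-veh libraries, and the log2 fold change was -0.87 (SE 0.33, adjusted p = 0.3201).

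Among the genes of glutathione synthesis and recycling, all 4 measured members lay below the all-gene median. Gclm encodes the modifier subunit of glutamate-cysteine ligase, the rate-limiting enzyme of glutathione synthesis. It had 8.27, 4.76 and 7.99 FPKM in db/db-veh, against 16.8, 16.5 and 18.96 FPKM in db/m-veh. The groups lay far apart, and the log2 fold change was -1.29 (SE 0.39, adjusted p = 0.245). With median of ratios scaling Gclm was at 8.95, 9.004 and 9.92 in db/db-veh and 17.1, 20.04 and 17.5 in db/m-veh, with a log2 fold change of -0.93 and the smallest unadjusted p of any member (8.15e-04), which became 0.133 after adjustment over all genes. The catalytic subunit gene Gclc averaged 20.1 ± 9.59 FPKM in db/db-veh and 29.99 ± 12.04 FPKM in db/m-veh, glutathione synthetase Gss 8.29 ± 2.96 and 12.96 ± 3.93 FPKM, and glutathione reductase Gsr 8.87 ± 2.84 and 14.4 ± 5.43 FPKM. These 3 overlapped between the groups, with log2 fold changes of -0.61, -0.63 and -0.64.

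The genes called reductases, with the oxygenase gene Hmox1 among them, gave the lowest median of any role. Minus that of all genes it was -1.002, and -0.88 after median of ratios scaling. Hmox1, haem oxygenase 1, which breaks haem down, had 2.19, 0.889 and 9.29 FPKM in db/db-veh, against 21.7, 7.79 and 12.5 FPKM in db/m-veh. Its log2 fold change of -2.01 (SE 0.69, adjusted p = 0.276) was the most negative of all members, but db/db-veh library 3 lay inside the range of db/m-veh. Srxn1, sulfiredoxin, which restores over-oxidised peroxiredoxins and whose promoter match is printed above, had 5.699, 3.27 and 5.49 FPKM in db/db-veh, against 7.83, 11.97 and 17.4 FPKM in db/m-veh. The groups did not overlap, and the log2 fold change was -1.24 (SE 0.50, adjusted p = 0.344). Txn1 had 33.95, 17.04 and 40.5 FPKM in db/db-veh, against 55.3, 63.7 and 91.7 FPKM in db/m-veh. Again the groups did not overlap (log2 fold change -1.25 with SE 0.59 and adjusted p = 0.434). Nqo1, a quinone reductase, averaged 13.3 ± 6.78 FPKM in db/db-veh and 22.8 ± 4.53 FPKM in db/m-veh. Thioredoxin reductase Txnrd1, at 6.05 ± 2.32 and 6.87 ± 1.45 FPKM, was the one reductase above the all-gene median, with a log2 fold change of -0.21.

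All 8 measured genes of superoxide and peroxide removal lay below the all-gene median, and 7 of 8 did after median of ratios scaling. Sod1, the cytosolic copper-zinc superoxide dismutase, had 15.7, 7.19 and 14.1 FPKM in db/db-veh, against 33.4, 22.9 and 37.97 FPKM in db/m-veh. The highest db/db-veh library was below the lowest db/m-veh library, and the log2 fold change was -1.36 (SE 0.50, adjusted p = 0.311). Once scaled by median of ratios, the log2 fold change of Sod1 was -0.99 (SE 0.30, adjusted p = 0.225). Prdx5 had 62.1, 35.7 and 118 FPKM in db/db-veh, against 182, 123 and 234 FPKM in db/m-veh. Its groups did not overlap by a narrow margin, and the log2 fold change was -1.43 (SE 0.60, adjusted p = 0.369). The mitochondrial dismutase Sod2, Cat, Prdx1, Prdx2, Prdx3 and Prdx6 overlapped between the groups, with log2 fold changes between -0.89 for Prdx2 and -0.25 for Prdx3.

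The glutathione transferases were mixed, with 6 of 9 below the all-gene median. Gstm2 had 9.31, 7.03 and 6.901 FPKM in db/db-veh, against 18.04, 16.8 and 20.6 FPKM in db/m-veh. The db/db-veh libraries all lay well below those of db/m-veh, and the log2 fold change was -1.21 (SE 0.36, adjusted p = 0.245). Its neighbour on chromosome 3, Gstm1, had 139.8, 52.2 and 199 FPKM in db/db-veh, against 479.8, 182 and 211 FPKM in db/m-veh. There the groups overlapped and db/m-veh library 1 stood far above its other 2 (log2 fold change -1.22 with SE 0.54 and adjusted p = 0.3997). Alpha-class Gsta2 averaged 44.9 ± 38.1 FPKM in db/db-veh and 28.5 ± 11.9 FPKM in db/m-veh, with the largest positive log2 fold change of the members, 0.40 (SE 0.59, adjusted p = 0.858). Gsta4, which conjugates the lipid aldehyde hydroxynonenal, stood at 7.396 ± 1.49 and 7.11 ± 1.89 FPKM. The membrane-bound transferase Mgst1 averaged 5.42 ± 4.02 and 16.1 ± 16.5 FPKM, and Gstm5, Gstp1, Gsta1 and Gsta3 had log2 fold changes of -0.62, -0.65, -0.27 and -0.23.

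The enzymes of NADPH supply and the pentose phosphate pathway were all 4 below the all-gene median. G6pdx, glucose-6-phosphate dehydrogenase, which opens the pentose phosphate pathway, had 2.63, 1.22 and 4.48 FPKM in db/db-veh, against 6.67, 3.91 and 5.49 FPKM in db/m-veh. The third db/db-veh library lay inside the db/m-veh range, and the log2 fold change was -0.94 (SE 0.43, adjusted p = 0.416). Me1, cytosolic malic enzyme, had 10.5, 7.72 and 9.57 FPKM in db/db-veh, against 13.2, 17.5 and 14.97 FPKM in db/m-veh. These did not overlap as deposited, but did after median of ratios scaling (log2 fold change -0.69 as deposited and -0.33 after scaling). Pgd and Tkt, also enzymes of the pentose phosphate pathway, had log2 fold changes of -0.31 and -0.34.

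Db/db-veh library 2 was the lowest library: it held the lowest value of the 12 libraries for 25 of 32 members as deposited, against 51.2% of all genes, and for 10 of 32 after median of ratios scaling, against 13.7% of all genes. Without it the members' median minus that of all genes was -0.29, against -0.41 with it. Marker sums of some cell types lay apart between the groups, and those of others overlapped. Collecting duct markers summed to 63.8, 34.5 and 99.8 FPKM in db/db-veh and 93.6, 75.98 and 265 FPKM in db/m-veh, which overlapped. Endothelial markers summed to 69.8, 36.0 and 72.3 FPKM in db/db-veh and 105, 84.2 and 102 FPKM in db/m-veh, without overlap. Red blood cell markers, which share Slc4a1 with the collecting duct list, summed to 327, 136 and 334 FPKM in db/db-veh and 942, 1193 and 588 FPKM in db/m-veh, without overlap. Proximal tubule markers summed to 878, 340.1 and 989.7 FPKM in db/db-veh and 2093, 484 and 962 FPKM in db/m-veh, which overlapped. Of the listed markers, 0 of 9 collecting duct, 0 of 8 endothelial, 0 of 8 red blood cell and 0 of 12 proximal tubule genes tested were called. Their part in the antioxidant values was not tested, and in whole tissue fewer cells of a type and less RNA per cell cannot be told apart.

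Other genes of the pathway, 95 in number and 87 of them tested, had 0 called in either direction. At an unadjusted p under 0.05, 11 (12.6%) were lower and 1 was higher in db/db-veh, near the 10.7% and 0.799% of all genes. After median of ratios scaling 6 (6.9%) were lower and 6 (6.9%) higher at that p, against 7.09% and 4.89% of all genes. Ftl1, the ferritin light chain, which stores iron, had 221, 147 and 317 FPKM in db/db-veh, against 877, 551 and 1277 FPKM in db/m-veh. The highest db/db-veh library was well below the lowest db/m-veh library, with a log2 fold change of -1.97 (SE 0.48, adjusted p = 0.186). It was called when the first library labelled db/db-GABP-KD, which belongs to neither group but enters the shared estimate of spread, was left out (adjusted p = 0.04004). Txn2, mitochondrial thioredoxin, averaged 7.96 ± 4.13 FPKM in db/db-veh and 21.99 ± 8.32 FPKM in db/m-veh (log2 fold change -1.46 with SE 0.46 and adjusted p = 0.255). Sqstm1, which competes with NFE2L2 for KEAP1, averaged 21.7 ± 5.38 and 52.3 ± 14.9 FPKM (log2 fold change -1.24 with SE 0.54 and adjusted p = 0.391). The 1 pathway gene higher at that p was Abcc3, an exporter of conjugates, at 0.733 ± 0.495 FPKM in db/db-veh and 0.215 ± 0.151 FPKM in db/m-veh (log2 fold change 0.72 with SE 0.30 and adjusted p = 0.3696).

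By list, 1 of 12 partners and controllers of NFE2L2, 1 of 26 further NFE2L2 targets, 4 of 27 further glutathione genes and 5 of 22 further thioredoxin and peroxide genes were lower at an unadjusted p under 0.05, where all genes gave 10.7%. With median of ratios scaling 1 of 27 glutathione genes was lower and 0 higher, and 3 of 22 thioredoxin and peroxide genes were lower and 2 higher. Of 12 partners 1 was then lower and 1 higher, and of 26 targets 1 was lower and 3 higher. All genes gave 7.09% lower and 4.89% higher in that scaling. The remaining genes named by rule were Rbx1 (log2 fold change -0.75) and Mafg (-0.59) among the partners, Nqo2 (-0.58) among the targets, Gstm4 (-1.05), Lap3 (-1.13) and Chac2 (-0.97) among the glutathione genes, and Txndc17 (-1.05) and Sod3 (-1.17) among the thioredoxin and peroxide genes.

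**Figure D2:**
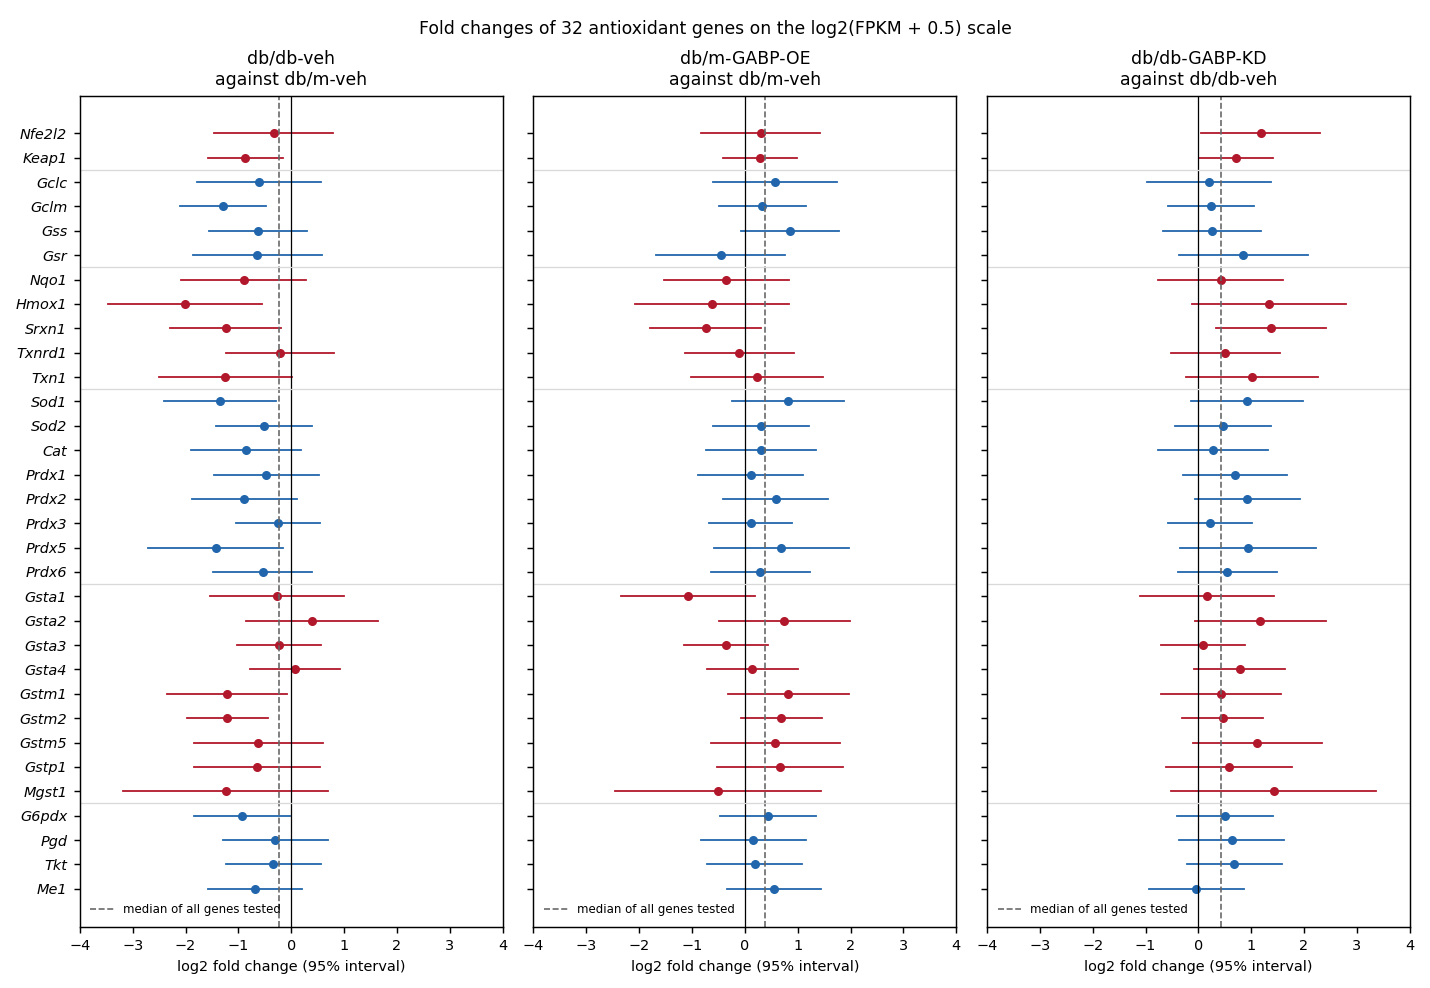
Log2 fold changes on the log2(FPKM + 0.5) scale, with 95% intervals, of the 32 measured members in the 3 comparisons; colours alternate between roles and the dashed line is the median of all genes tested. In db/db-veh relative to db/m-veh 28 of 32 points lie left of the dashed line, against 20 of 32 in db/m-GABP-OE relative to db/m-veh and 9 of 32 in db/db-GABP-KD relative to db/db-veh.

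The second comparison asks how the same genes differed in lean kidneys labelled as having more GABP. No member passed the test in db/m-GABP-OE relative to db/m-veh, where 1.85% of all genes tested were called higher and 0.0543% lower. The members' median log2 fold change was 0.30, below the 0.38 of all genes, and after median of ratios scaling it was -0.13, against 0.044 for all genes. At an unadjusted p under 0.05, 0 of 32 members were higher and 0 lower, against 14.5% and 0.504% of all genes. Without db/m-veh library 1 the counts were 2 and 1 (15.5% and 0.675% of all genes), and without the first library labelled db/db-GABP-KD, which enters the shared estimate of spread, 3 and 1 (19.7% and 0.698%). The groups did not overlap for 8 members that were higher (25.0%), a smaller share than the 30.4% of all genes, and for 1 that was lower, against 0.923% of all genes. Once scaled by median of ratios, 0 were called, against 0.163% of all genes higher and 0.0465% lower. In that scaling 1 member, Srxn1, was lower at an unadjusted p under 0.05 and 0 were higher, against 2.02% and 5.51% of all genes, and 1 was higher without overlap and 2 lower, against 9.72% and 4.7%. The comparison shares its db/m-veh libraries with the first.

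The reductases had the lowest median of the roles: all 5 lay below the all-gene median in both scalings, and their median minus it was -0.73 as deposited, and -0.82 under median of ratios scaling. Srxn1 had 6.68, 7.42 and 6.48 FPKM in the libraries labelled db/m-GABP-OE, against 7.83, 11.97 and 17.4 FPKM in db/m-veh. The highest of the first group lay just under the lowest of db/m-veh, in a direction opposite to most genes. Its log2 fold change was -0.74 (SE 0.50, adjusted p = 0.493) as deposited and became -1.15 (SE 0.33, adjusted p = 0.245) after median of ratios scaling, with an unadjusted p of 0.0040 in that scaling. Nqo1 averaged 18.05 ± 5.48 FPKM in db/m-GABP-OE and 22.8 ± 4.53 FPKM in db/m-veh, and Hmox1 8.78 ± 4.24 and 13.98 ± 7.06 FPKM. Their log2 fold changes were -0.35 and -0.63 as deposited, and -0.78 and -1.04 after scaling, where the libraries of Nqo1 no longer overlapped. Txnrd1 and Txn1 had log2 fold changes of -0.11 and 0.23 as deposited, and that of Txn1 was -0.20 after scaling.

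Neither regulator passed the test. Nfe2l2 had 13.7, 12.5 and 13.2 FPKM in the libraries labelled db/m-GABP-OE, against 11.8, 8.81 and 11.4 FPKM in db/m-veh. The libraries did not overlap as deposited, yet the log2 fold change of 0.30 (SE 0.53, adjusted p = 0.769) was under the all-gene median and turned to -0.12 after median of ratios scaling. Keap1 had 2.45, 4.22 and 3.82 FPKM in db/m-GABP-OE, against 3.43, 2.595 and 2.21 FPKM in db/m-veh. Its groups overlapped, with a log2 fold change of 0.29 (SE 0.33, adjusted p = 0.657) as deposited and -0.089 after scaling.

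Among the genes of glutathione synthesis, Gss had 22.4, 27.6 and 19.7 FPKM in db/m-GABP-OE, against 17.1, 9.25 and 12.5 FPKM in db/m-veh. All 3 of the first group were above all 3 of the second, and the log2 fold change was the largest of the members, 0.85 (SE 0.44, adjusted p = 0.379). Gclm averaged 22.1 ± 1.897 and 17.4 ± 1.34 FPKM and also did not overlap, with a log2 fold change of 0.33 that became -0.10 after median of ratios scaling. Gclc averaged 43.1 ± 9.55 FPKM in db/m-GABP-OE and 29.99 ± 12.04 FPKM in db/m-veh. Gsr was the one of the 4 with a lower mean, 9.87 ± 1.52 FPKM in db/m-GABP-OE and 14.4 ± 5.43 FPKM in db/m-veh (log2 fold change -0.45).

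For superoxide and peroxide removal, Sod1 had 45.8, 65.6 and 53.2 FPKM in db/m-GABP-OE, against 33.4, 22.9 and 37.97 FPKM in db/m-veh. It was the only member whose libraries were higher without overlap in both scalings, with a log2 fold change of 0.81 (SE 0.50, adjusted p = 0.461) as deposited and 0.37 after median of ratios scaling. Prdx2, a cytosolic peroxiredoxin, had 19.8, 27.7 and 23.4 FPKM in db/m-GABP-OE, against 10.8, 14.8 and 23.1 FPKM in db/m-veh. The groups overlapped (log2 fold change 0.59 with SE 0.47 and adjusted p = 0.551). Log2 fold changes of the other 6 ran from 0.11 for Prdx1 to 0.69 for Prdx5 as deposited, and those of Sod2, Cat, Prdx1, Prdx3 and Prdx6 were below 0 after scaling.

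The transferases' median was above that of all genes by 0.20. Gstm2 had 27.04, 25.9 and 38.4 FPKM in db/m-GABP-OE, against 18.04, 16.8 and 20.6 FPKM in db/m-veh. Its libraries did not overlap as deposited (log2 fold change 0.69 with SE 0.36 and adjusted p = 0.387) but did after median of ratios scaling. Gstm1 had 361, 414 and 684 FPKM in db/m-GABP-OE, against 479.8, 182 and 211 FPKM in db/m-veh. Here db/m-veh library 1 lay above 2 of the 3 libraries labelled db/m-GABP-OE (log2 fold change 0.82 with SE 0.54 and adjusted p = 0.485). Gstp1, the pi-class transferase, had 32.5, 38.6 and 51.3 FPKM in db/m-GABP-OE, against 23.5, 23.9 and 27.8 FPKM in db/m-veh. Gsta2 had 38.8, 39.1 and 59.7 FPKM in db/m-GABP-OE, against 35.02, 35.8 and 14.8 FPKM in db/m-veh. Both were without overlap as deposited, with log2 fold changes of 0.67 (SE 0.56, adjusted p = 0.565) and 0.75 (SE 0.59, adjusted p = 0.545). Gsta1, its near-identical neighbour on chromosome 9, had 0.695, 0.108 and 0 FPKM in db/m-GABP-OE, against 0.114, 2.15 and 1.57 FPKM in db/m-veh. Values of this size rest on few fragments, and the log2 fold change was -1.07 (SE 0.60, adjusted p = 0.418).

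Of the NADPH and pentose phosphate enzymes, Me1 had 19.3, 19.8 and 29.5 FPKM in db/m-GABP-OE, against 13.2, 17.5 and 14.97 FPKM in db/m-veh. The groups did not overlap as deposited, and the log2 fold change was 0.55 (SE 0.42, adjusted p = 0.537). G6pdx, Pgd and Tkt had log2 fold changes of 0.44, 0.16 and 0.19, and after scaling those of Pgd and Tkt were -0.24 and -0.22.

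Macrophage markers moved with these groups: they summed to 134, 194 and 244 FPKM in db/m-GABP-OE and 31.1, 35.98 and 31.5 FPKM in db/m-veh, with 3 of 9 tested markers called higher (Mrc1, C1qc and C1qa) as deposited and 0 after median of ratios scaling. After scaling they summed to 106, 149 and 183 in db/m-GABP-OE and 31.7, 43.6 and 29.1 in db/m-veh, and their median log2 fold change minus that of all genes was 1.48, against 1.57 as deposited. Adipose markers summed to 24.5, 33.3 and 19 FPKM in db/m-GABP-OE and 4.56, 11.7 and 7.31 FPKM in db/m-veh, with 2 of 5 called higher (Ucp1 and Cfd) as deposited. No macrophage or adipose marker was at 0 in all libraries. Their part in the antioxidant values was not tested.

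Of the 87 other pathway genes tested, 0 were called in this comparison, with 7 (8.05%) higher and 0 lower at an unadjusted p under 0.05, against 14.5% and 0.504% of all genes. After median of ratios scaling 4 (4.6%) were higher and 3 (3.45%) lower at that p, against 5.51% and 2.02% of all genes. Prdx4, the peroxiredoxin of the endoplasmic reticulum, had 3.73, 6.31 and 3.54 FPKM in db/m-GABP-OE, against 0.831, 1.603 and 3.15 FPKM in db/m-veh. The groups did not overlap, and the log2 fold change was 1.17 (SE 0.36, adjusted p = 0.1196). Ephx1, microsomal epoxide hydrolase, averaged 21.9 ± 8.04 FPKM in db/m-GABP-OE and 9.53 ± 1.29 FPKM in db/m-veh (log2 fold change 1.09 with SE 0.39 and adjusted p = 0.177). Akr1b8, an aldo-keto reductase, averaged 3.104 ± 1.37 and 0.943 ± 0.316 FPKM (log2 fold change 1.26 with SE 0.49 and adjusted p = 0.228), and was called when the fit held only these groups (adjusted p = 0.0494). Glo1, glyoxalase 1, which clears methylglyoxal with glutathione, went the other way from most genes, at 1.55, 1.72 and 1.703 FPKM in db/m-GABP-OE, against 1.53, 4.51 and 6.23 FPKM in db/m-veh. The first db/m-veh library was as low as those of db/m-GABP-OE (log2 fold change -0.92 with SE 0.44 and adjusted p = 0.335). The remaining genes named by rule were Nfe2l1 (log2 fold change 0.63), Bach1 (0.50), Maff (0.80), Abcc3 (0.73), Ggct (0.73), Gstm6 (0.81), Sesn1 (0.90) and Sesn3 (0.42).

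**Figure D3:**
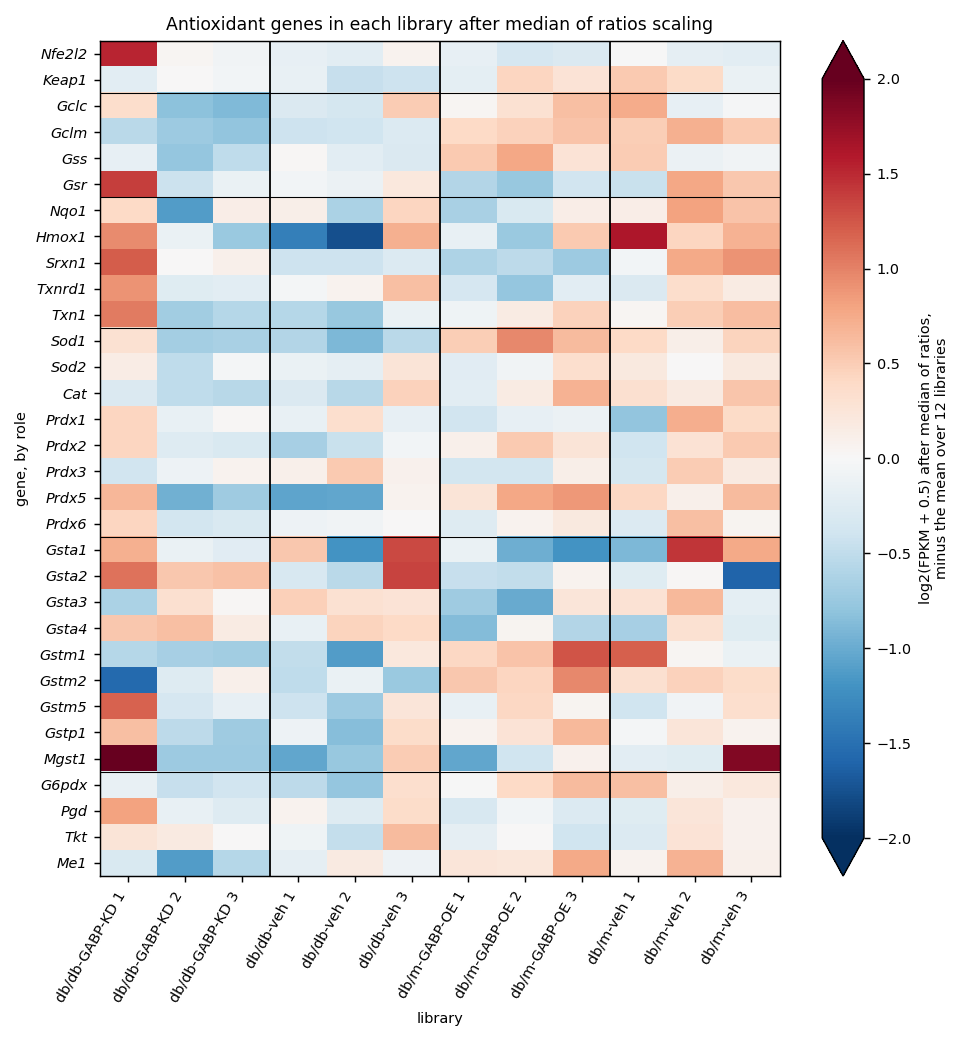
Each measured member (rows, by role) in each library (columns, by group) as log2(FPKM + 0.5) after median of ratios scaling, minus its mean over the 12 libraries; red is higher and blue lower. The first library labelled db/db-GABP-KD is red for Nfe2l2, Gsr, Srxn1, Txn1 and Mgst1 and blue for Gstm2, in each case farther from 0 than libraries 2 and 3 of its group.

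The third comparison asks how the genes differed in diabetic kidneys labelled as having less GABP, in which Gabpa mRNA was not lower. No member passed the test in db/db-GABP-KD relative to db/db-veh, where 0.0% of all genes tested were called in either direction as deposited. At an unadjusted p under 0.05, 3 of 32 members (Nfe2l2, Keap1 and Srxn1) were higher and 0 lower, against 13.7% and 0.574% of all genes. That count was 0 without the first library labelled db/db-GABP-KD (8.85% of all genes) and 0 without db/db-veh library 2 (5.47%), and 8 without db/db-veh library 3 (12.5%), 10 without library 2 labelled db/db-GABP-KD (18.7%) and 9 without library 3 (17.9%). The same 3 were higher without overlap and 0 were lower, against 17.3% and 0.822% of all genes. With median of ratios scaling 0 were called, against 0.0% of all genes higher and 0.0388% lower. In that scaling 1 member, Srxn1, was higher at an unadjusted p under 0.05 and 1, Me1, lower, against 2.88% and 3.6% of all genes, and 1 was higher without overlap and 3 lower, against 4.63% and 5.67%. The members' median log2 fold change was 0.60, against 0.42 over all genes. This lean depended on single libraries and on scaling. Without the first library labelled db/db-GABP-KD the members' median minus that of all genes was -0.14 in place of 0.18. Members below the all-gene median then numbered 21 of 32 in place of 9 of 32. Without db/db-veh library 2 the difference of medians was 0.048, with 15 of 32 below. After median of ratios scaling it was 0.028, with 16 of 32 below, and after quantile normalization -0.053, with 17 of 32 below. Without the first library labelled db/db-GABP-KD 4 members (Nfe2l2, Keap1, Srxn1 and Gstm2) were higher without overlap and 0 lower, against 23.8% and 2.28% of all genes. This comparison shares its db/db-veh libraries with the first.

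That library was high for most antioxidant genes. It held the highest value of the 12 libraries for 21 of 32 members as deposited, against 39.9% of all genes, and for 8 of 32 after median of ratios scaling, against 16.5% of all genes. The median member was higher in it than the mean of libraries 2 and 3 by 1.59 on the log2 scale, against 0.53 for the median of all genes, and by 0.74 against -0.13 after median of ratios scaling. In both scalings nearly all members lay above the all-gene median of this ratio, 30 of 32 as deposited and 28 of 32 after scaling. At least 4-fold higher in it were 11 members, against 5.65% of all genes, and after scaling 1 member, Mgst1, against 0.961% of all genes. Mgst1, which reduces lipid peroxides in membranes, had 102, 4.46 and 4.59 FPKM in the libraries labelled db/db-GABP-KD, against 3.66, 2.58 and 10.02 FPKM in db/db-veh, so library 1 was 22.6-fold above the mean of the other 2 (11.9-fold after scaling). Gstm2 went the other way, with 7.97, 10.8 and 14.4 FPKM in libraries labelled db/db-GABP-KD, against 9.31, 7.03 and 6.901 FPKM in db/db-veh, library 1 being 0.632 times the mean of libraries 2 and 3. These ratios describe 1 library and carry no test.

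Cell markers of that library differed too. Collecting duct markers summed to 386, 61.01 and 73.4 FPKM in libraries labelled db/db-GABP-KD and 63.8, 34.5 and 99.8 FPKM in db/db-veh, with library 1 the highest of all 12 as deposited. Aqp2, the collecting duct water channel, made up 328 FPKM of the sum in library 1, and after median of ratios scaling the sum there was 225, below the 244 of db/m-veh library 3. Proximal tubule markers summed to 725, 684 and 750.01 FPKM in libraries labelled db/db-GABP-KD and 878, 340.1 and 989.7 FPKM in db/db-veh, and after median of ratios scaling library 1 was the lowest of the 12 at 423. Macrophage markers summed to 48.3, 76.3 and 90.01 FPKM in libraries labelled db/db-GABP-KD and 28.5, 14.8 and 21.9 FPKM in db/db-veh, without overlap. After scaling they summed to 28.2, 85.8 and 98.1 in libraries labelled db/db-GABP-KD and 30.8, 27.95 and 27.2 in db/db-veh, and library 1 lay inside the db/db-veh range. In library 1 Cd14 stood at 30.4 FPKM and Cd68 at 11.3 FPKM, while C1qa at 0.797, C1qb at 0.871 and Lyz2 at 1.799 FPKM were below every db/db-veh library. Red blood cell markers summed to 271, 36.3 and 56.04 FPKM in libraries labelled db/db-GABP-KD and 327, 136 and 334 FPKM in db/db-veh. None of the collecting duct, red blood cell, proximal tubule or macrophage lists had a marker at 0 in all libraries, and 0 of their markers were called. Of 8 markers of the thick ascending limb and distal tubule, 7 were below the all-gene median in both scalings, and 1 of them, the salt carrier gene Slc12a1, was called lower after median of ratios scaling. Slc12a1 had 18.98, 9.83 and 17.9 FPKM in libraries labelled db/db-GABP-KD, against 89.2, 27.6 and 48.8 FPKM in db/db-veh (log2 fold change -1.69 with SE 0.45 and adjusted p = 0.337 as deposited, and -2.29 with SE 0.33 and adjusted p = 0.0232 after scaling). Of 5 adrenal markers, the steroid enzyme genes Cyp11a1, Cyp11b1 and Cyp21a1 were at 0 in all 12 libraries, but Hsd3b1 and Star were not. Hsd3b1 had 1.53, 0.251 and 0.92 FPKM in libraries labelled db/db-GABP-KD, against 2.31, 0 and 3.93 FPKM in db/db-veh. In db/m-veh Hsd3b1 had 0, 0.0791 and 0.231 FPKM. Star had 0.748, 0.085 and 0.38 FPKM in libraries labelled db/db-GABP-KD, against 0.789, 0.158 and 0.411 FPKM in db/db-veh. Neither was called. The part of these markers in the antioxidant values was not tested.

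Nfe2l2 had 61.7, 11.1 and 10.6 FPKM in the libraries labelled db/db-GABP-KD, against 9.98, 5.57 and 10.4 FPKM in db/db-veh. Library 1 was more than 5 times the others, while libraries 2 and 3 lay just above the highest db/db-veh library. The log2 fold change was 1.18 (SE 0.53, adjusted p = 0.345), and 0.36 without library 1. Once scaled by median of ratios, the values were 35.98, 12.5 and 11.6 in libraries labelled db/db-GABP-KD and 10.8, 10.5 and 12.9 in db/db-veh, and the groups overlapped (log2 fold change 0.59 with SE 0.35 and adjusted p = 0.835). Keap1 had 3.28, 2.04 and 2.0 FPKM in libraries labelled db/db-GABP-KD, against 1.85, 0.802 and 1.28 FPKM in db/db-veh. All 3 libraries of the first group were above those of the second, with library 1 at 1.63 times the mean of libraries 2 and 3. Its log2 fold change was 0.71 (SE 0.33, adjusted p = 0.347), and 0.52 without library 1. After median of ratios scaling the Keap1 values were 1.91, 2.29 and 2.18 in libraries labelled db/db-GABP-KD and 2.01, 1.52 and 1.58 in db/db-veh, which overlapped (log2 fold change 0.26 with SE 0.25 and adjusted p = 0.919).

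Srxn1 was the member with the smallest p in this comparison. It had 34.3, 7.48 and 8.27 FPKM in libraries labelled db/db-GABP-KD, against 5.699, 3.27 and 5.49 FPKM in db/db-veh. The groups did not overlap, with or without library 1 and in both scalings, and after median of ratios scaling the values were 20.03, 8.42 and 9.02 in libraries labelled db/db-GABP-KD and 6.17, 6.17 and 6.82 in db/db-veh. Its log2 fold change was 1.37 (SE 0.50, adjusted p = 0.345) as deposited and became 0.81 (SE 0.33, adjusted p = 0.709) after scaling, and 0.69 as deposited without library 1. Hmox1 had 23.5, 5.52 and 3.57 FPKM in libraries labelled db/db-GABP-KD, against 2.19, 0.889 and 9.29 FPKM in db/db-veh. The groups overlapped (log2 fold change 1.34 with SE 0.69 and adjusted p = 0.352, and 0.58 without library 1). Txn1 had 194, 30.04 and 33.8 FPKM in libraries labelled db/db-GABP-KD, against 33.95, 17.04 and 40.5 FPKM in db/db-veh. Only library 1 was above db/db-veh, with a log2 fold change of 1.01 (SE 0.59, adjusted p = 0.377) and of 0.15 without it, which became -0.14 when median of ratios scaling was added. Nqo1 and Txnrd1 had log2 fold changes of 0.42 and 0.51 as deposited, -0.18 and -0.16 without library 1, and -0.17 and -0.066 after scaling, so their direction turned with either.

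The genes of glutathione synthesis had log2 fold changes below the all-gene median, apart from Gsr. Gclc averaged 27.7 ± 25.6 FPKM in libraries labelled db/db-GABP-KD and 20.1 ± 9.59 FPKM in db/db-veh, Gclm 8.77 ± 4.43 and 7.01 ± 1.95 FPKM, and Gss 10.8 ± 6.78 and 8.29 ± 2.96 FPKM. Their log2 fold changes of 0.20, 0.24 and 0.26 compare with 0.42 for the median of all genes. With median of ratios scaling they were -0.40, -0.33 and -0.32, with Gclm lower without overlap, and without library 1 they were -0.51, -0.12 and -0.19. Gsr, at 53, 7.45 and 9.605 FPKM in libraries labelled db/db-GABP-KD, against 10.2, 5.61 and 10.8 FPKM in db/db-veh, had a log2 fold change of 0.85 (SE 0.58, adjusted p = 0.423) that rested on library 1 (-0.013 without it). With library 1 left out and median of ratios scaling applied, a setting chosen after the data were seen, all 4 genes were lower without overlap in the remaining libraries labelled db/db-GABP-KD, with a median log2 fold change of -0.44. In that setting 8 of 32 members were lower without overlap (Gclc, Gclm, Gss, Gsr, Txnrd1, Prdx3, Prdx6 and Me1) and 2 were higher (Keap1 and Srxn1), against 10.9% and 13.7% of all genes, and 0 were called.

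For superoxide and peroxide removal, Sod1 had 54.7, 14.03 and 14.8 FPKM in libraries labelled db/db-GABP-KD, against 15.7, 7.19 and 14.1 FPKM in db/db-veh. Prdx2 had 33.96, 10.8 and 10.7 FPKM in libraries labelled db/db-GABP-KD, against 8.36, 5.62 and 11.3 FPKM in db/db-veh. In both genes libraries 2 and 3 of db/db-GABP-KD lay inside the range of db/db-veh and library 1 far above it. The log2 fold change of Sod1 was 0.92 (SE 0.50, adjusted p = 0.361), and 0.29 without library 1. That of Prdx2 was 0.92 (SE 0.47, adjusted p = 0.352), and 0.39 without library 1. Log2 fold changes of the other 6 ran from 0.22 for Prdx3 to 0.94 for Prdx5 as deposited, and those of Sod2, Cat, Prdx3 and Prdx6 were below 0 after median of ratios scaling.

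Among the transferases, Gsta2 had 156, 55.2 and 58.8 FPKM in libraries labelled db/db-GABP-KD, against 31.4, 15.4 and 87.9 FPKM in db/db-veh. Gsta4 had 21.4, 11.6 and 8.65 FPKM in libraries labelled db/db-GABP-KD, against 6.99, 6.15 and 9.05 FPKM in db/db-veh. Both overlapped, with db/db-veh library 3 the highest of its group in each. The log2 fold change of Gsta2 was 1.17 (SE 0.59, adjusted p = 0.3496) and that of Gsta4 0.78 (SE 0.41, adjusted p = 0.352). Gstm5 had 78.4, 13.9 and 16.4 FPKM in libraries labelled db/db-GABP-KD, against 13.7, 6.296 and 19.05 FPKM in db/db-veh. Again library 1 alone was above db/db-veh (log2 fold change 1.12 with SE 0.58 and adjusted p = 0.352, and 0.34 without it). The log2 fold changes of Gstm1, Gstm2, Gstp1, Gsta1 and Gsta3 were 0.43, 0.46, 0.57, 0.16 and 0.083, and all 5 were below 0 after median of ratios scaling. For the NADPH and pentose phosphate enzymes the log2 fold changes were 0.50 for G6pdx, 0.63 for Pgd, 0.68 for Tkt and -0.040 for Me1. That of G6pdx was -0.012 after median of ratios scaling, that of Pgd -0.0014 without library 1, and Me1 stood at -0.63 after median of ratios scaling (unadjusted p 0.0494, adjusted p 0.766), with no overlap in that scaling.

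**Figure D4:**
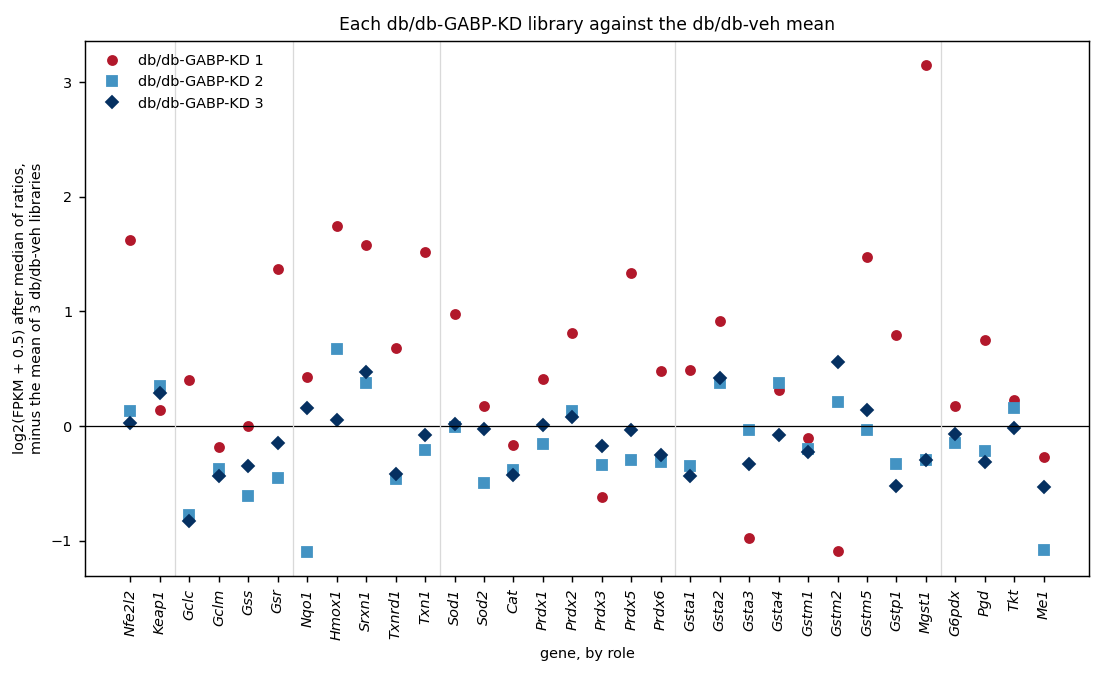
Each library labelled db/db-GABP-KD (points) minus the mean of the 3 db/db-veh libraries, as log2(FPKM + 0.5) after median of ratios scaling, for the 32 measured members by role. Library 1 lies above libraries 2 and 3 for most members, with Mgst1 the highest and Gstm2 the lowest, while for Srxn1 all 3 libraries are above 0.

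Of the other pathway genes, 0 of 87 were called, with, at an unadjusted p under 0.05, 13 (14.9%) higher and 1 lower, near the 13.7% and 0.574% of all genes. Once scaled by median of ratios, 1 (1.15%) was higher and 3 (3.45%) lower at that p, against 2.88% and 3.6% of all genes. Txnrd2, mitochondrial thioredoxin reductase, had 3.901, 2.41 and 2.75 FPKM in libraries labelled db/db-GABP-KD, against 1.34, 0.619 and 1.39 FPKM in db/db-veh. The groups did not overlap, and the log2 fold change was 1.14 (SE 0.31, adjusted p = 0.337) as deposited and became 0.70 (SE 0.22, adjusted p = 0.505) after median of ratios scaling, and 0.97 without library 1. Prdx4 had 3.26, 3.21 and 2.498 FPKM in libraries labelled db/db-GABP-KD, against 1.4, 1.11 and 0.989 FPKM in db/db-veh, with no overlap and a log2 fold change of 1.07 (SE 0.36, adjusted p = 0.345). Ftl1 averaged 580.5 ± 351 FPKM in libraries labelled db/db-GABP-KD and 228 ± 85.4 FPKM in db/db-veh (log2 fold change 1.25 with SE 0.48 and adjusted p = 0.345, and 0.79 without library 1). Sqstm1, at 133, 27.5 and 27.5 FPKM in libraries labelled db/db-GABP-KD, against 22.8, 15.8 and 26.4 FPKM in db/db-veh, was without overlap as deposited (log2 fold change 1.12 with SE 0.54 and adjusted p = 0.348, and 0.37 without library 1). The 1 lower gene was Gstp2, a near-identical copy of Gstp1, at 0.0349 ± 0.0604 FPKM in libraries labelled db/db-GABP-KD and 0.3895 ± 0.411 FPKM in db/db-veh. The remaining genes named by rule were Maff (log2 fold change 1.48, and 0.67 without library 1), Nfe2l1 (0.85 and 0.83), Akr1b8 (1.26 and 0.68), Cbr3 (1.26 and 0.72), Gsto1 (1.497 and 0.88), Ggt5 (0.79 and 1.100) and Sesn3 (0.64 and 0.35).

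Set side by side, Srxn1 had log2 fold changes of -1.24 in db/db-veh relative to db/m-veh, -0.74 in db/m-GABP-OE relative to db/m-veh and 1.37 in db/db-GABP-KD relative to db/db-veh. Sod1 had -1.36, 0.81 and 0.92 in the same order, Gclm -1.29, 0.33 and 0.24, and Gstm2 -1.21, 0.69 and 0.46. After median of ratios scaling Srxn1 had -0.90, -1.15 and 0.81, Sod1 -0.99, 0.37 and 0.33, Gclm -0.93, -0.10 and -0.33, and Gstm2 -0.85, 0.26 and -0.11, so the third value of Gclm and Gstm2 and the second of Gclm turned. The first comparison shares db/m-veh with the second and db/db-veh with the third, so these values are not independent of each other. Whether any member's difference differed between comparisons was not tested.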

How the data were processed

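The values are FPKM per gene and library as the authors deposited them. The submitters' processing notes list HTSeq and GRCm39, with no version of the tool. Neither aligner nor annotation nor strand setting was given in the sources used here. Multiplying by exon lengths of GENCODE M21 (GRCm38) gave whole fragments for 98.0% to 98.2% of nonzero values per library (tolerance 0.05 fragments), so gene coordinates are given in GRCm38 as that annotation has them, and depth is the sum of these fragments. PCR copies cannot be told from separate molecules, so counts of fragments cover counting error only. RNA was selected by poly(A) and sequenced in pairs, per the labels' protocols.

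The members and gene lists were chosen with earlier results of these data known. Groups came from sample titles. Log2(FPKM + 0.5) values were fitted with limma 3.58.1 (R 4.3.3) over 12897 genes that reached FPKM 0.3 in 3 or more libraries. All 12 libraries entered 1 fit with a mean per group and a variance trend, two-sided, called at a Benjamini-Hochberg adjusted p under 0.05. A fold change on this scale understates the change of low genes. Median of ratios scaling used 5884 genes above FPKM 1 in every library. "No overlap" means that every library of one group lay above every library of the other. Alternatives were other pseudocounts and filters, quantile normalization, no variance trend, fits of the 2 groups compared, the replicate number as a block, voom on recovered fragments and each library left out. The fit was tested on simulated data. Values per library are given for Nfe2l2, Keap1 and, in each comparison, the 10 members with the smallest p. From each pathway list, where none was called, the 3 genes with the smallest p are named. Trim16l was not used here, and Nnt, which has 2 rows, was left out. Python 3.11.15 with pandas 2.3.3, numpy 2.4.6 and matplotlib 3.10.9 did the rest.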

Additional observations from a re-analysis of the deposited data

How the results depend on the processing

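No member was called in any comparison under any alternative run. Leaving out 1 library at a time, the members' median minus that of all genes ran from -0.64 to -0.29 in db/db-veh relative to db/m-veh, from -0.17 to 0.02 in db/m-GABP-OE relative to db/m-veh, and from -0.14 to 0.38 in db/db-GABP-KD relative to db/db-veh, where the lowest value is without the first library labelled db/db-GABP-KD. With that library left out and median of ratios scaling together, chosen after seeing the data, the last was -0.22. With all 12 libraries, median of ratios scaling gave -0.29, -0.17 and 0.028 in the 3 comparisons, in the order above. Quantile normalization gave -0.16, -0.11 and -0.053, and voom -0.30, -0.18 and 0.088. Other pathway genes called numbered 0, apart from the following. In db/db-veh relative to db/m-veh 1 was called without the first library labelled db/db-GABP-KD (range 0 to 1, Ftl1). In db/m-GABP-OE relative to db/m-veh 1 was called when the fit held 2 groups (Akr1b8). That fit has fewer libraries, and the cause was not tested.

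Directions turned often, for members none of which was called. After median of ratios scaling 5 of 32 turned in db/db-veh relative to db/m-veh, 12 in db/m-GABP-OE relative to db/m-veh and 15 in db/db-GABP-KD relative to db/db-veh. In the last, 12 turned without the first library and 20 with both changes. The log2 fold change of Nfe2l2 in db/db-veh relative to db/m-veh was 0.035 after median of ratios scaling (also without the first db/db-GABP-KD library) and 0.15 after quantile normalization. In db/m-GABP-OE relative to db/m-veh that of Nfe2l2 was -0.12 and -0.11, and that of Keap1 -0.089 and -0.14, in the same settings. Txn1 in db/db-GABP-KD relative to db/db-veh was -0.14 after median of ratios scaling without the first library. Median of ratios and quantile scaling take out the all-gene shift of -0.24, 0.38 and 0.42.

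The labels stated no pairing by replicate number. Deviations of same-numbered libraries correlated at -0.48 to 0.38, and not every pair was positive. With 3 libraries a group these correlations cannot exclude a pairing. With the replicate number as a block 0 members were called, and over all genes 4 higher and 9 lower, 270 higher and 7 lower, and 0 in the 3 comparisons. With voom on recovered fragments 0 members were called, and at an unadjusted p under 0.05 10 of 32 were lower in db/db-veh (11.1% of all genes), 0 were higher in db/m-GABP-OE (13.7%) and 5 were higher in libraries labelled db/db-GABP-KD (14.3%). Counts over all genes moved more. In db/db-veh relative to db/m-veh 4 genes higher and 8 lower were called as deposited, 7 and 15 after median of ratios scaling, 10 and 16 after quantile normalization, 1 and 1 with no filter, 5 and 14 with 2 groups in the fit, 3 and 2 with voom, and 5 and 43 without the first db/db-GABP-KD library. In db/m-GABP-OE relative to db/m-veh 238 higher and 7 lower were called as deposited, 21 and 6 after median of ratios scaling, 25 and 8 after quantile normalization, 57 and 5 with pseudocount 0.1, 153 and 6 with a filter of FPKM 1, 117 and 6 with no variance trend, 566 and 24 with 2 groups in the fit, 61 and 4 with voom, and 541 and 18 without the first db/db-GABP-KD library. In db/db-GABP-KD relative to db/db-veh 0 were called as deposited and with voom, 5 lower after median of ratios scaling, 3 higher and 8 lower after quantile normalization, 1 higher with no filter, and 3 higher and 1 lower without the first library. With 3 libraries a group, animals possibly shared between libraries and few nuclear fragments in some of them, differences could exist without being called. The 95% intervals carry no adjustment over all genes, so even a difference whose interval left out 0 could go uncalled. The smallest log2 fold change called as deposited had a size of 1.84 in db/db-veh relative to db/m-veh. It had a size of 0.81 in db/m-GABP-OE relative to db/m-veh.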
